A study of Homo sapiens with 66 samples.

Results

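Transcript levels of 10 heat shock genes, HSPA1A, HSPA1B, HSPA8, HSPH1, DNAJB1, HSPB1, HSP90AA1, HSPE1, HSPD1 and BAG3, were followed in myeloma cells treated with a proteasome inhibitor or with prolyl-tRNA synthetase (ProRS) inhibitors. The genes were chosen by name, as chaperone and cochaperone genes known to be driven by heat shock factor 1 (HSF1), with earlier results of these data known. Each of the 10 was found among the 20167 genes of the count table. All 10 passed the filter on low counts in each of the 47 comparisons. With carfilzomib (CFZ) for 6 h every one of the 10 rose, by 3.79-fold (HSPE1) to 78.5-fold (HSPA1B), where 14.1% of all genes were called higher. The rise was smaller at 24 h for 9 of them, where 11.6% of all genes were called in that direction. With the ProRS inhibitors NCP26 and halofuginone (HFG) for 6 h 10 and 9 of the 10 fell in the line AMO1. There 19.2% and 26.6% of all genes were called lower. In the line L363-CFZr 7 and 9 fell, where 8.99% and 27.5% of all genes were called lower. HSPA8 fell the most in each. Over the 16 comparisons of a ProRS inhibitor or its analog with DMSO the largest log2 fold change was 0.87, for HSPA1A. This was with HFG for 24 h in AMO1 cells. Summed with HSPA1B, with which HSPA1A shares most of its sequence, the value was 0.31.

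In unstressed cells HSF1 is held inactive in complexes with chaperones. When misfolded proteins occupy the chaperones, HSF1 is released, forms trimers, enters the nucleus and binds heat shock elements, which are inverted repeats of the motif GAA separated by a pair of bases. Its targets encode chaperones that hold or refold proteins, so that the response limits itself once folding is restored. Blocking the proteasome leaves damaged and misfolded proteins in the cell and is a known trigger of this response, and plasma cells, which make and secrete large amounts of immunoglobulin, carry a heavy folding load. Inhibitors of ProRS keep tRNA from being charged with proline and are known for another response, the integrated stress response, in which GCN2 senses uncharged tRNA.

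AMO1 is an established human multiple myeloma line, and L363-CFZr is a subline of the myeloma line L363 that was made resistant to CFZ. Both lines were treated for 6 h or 24 h with DMSO, the solvent that all groups share, or with NCP26, HFG (MAZ1392), NCP22 or halofuginol (MAZ1805) at 1 µM. AMO1 cells alone were also treated with CFZ, at 10 nM, a dose that the labels do not give. NCP26 occupies the ATP site of ProRS, HFG competes with proline, NCP22 is an analog of NCP26 with a cyclohexyl ring in place of a piperidinyl ring, and halofuginol is a derivative of halofuginone. Each of the 22 groups had 3 replicates, so that 36 AMO1 and 30 L363-CFZr RNAseq libraries were available. The methods speak in general of biological triplicates and say of the RNAseq conditions that they were done in triplicate, without saying how the replicates were kept separate.

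AMO1 libraries held 1666325 to 5761682 counts and L363-CFZr libraries 2487872 to 6596543, and the smallest count of a member in any library was 29. The 9 plasma cell markers examined, among them SDC1, XBP1 and TNFRSF17, were each above 1 CPM (counts scaled to library size) in the median DMSO library of both lines, and the summed level of the markers of any other lineage was at most 5.62 CPM in a DMSO library. The sample numbers in the column names run from 1 to 22 and recur 3 times. By these numbers all AMO1 6 h libraries, the AMO1 DMSO 24 h libraries and CFZ 24 h replicate 1 form the first set. The other AMO1 24 h libraries and the L363-CFZr 6 h libraries with DMSO, NCP26 and NCP22 (replicates 1 and 2) form the second, and the remaining L363-CFZr libraries form the third. What a set stands for is not given in the sources used here. Treatment and set therefore cannot be told apart in the AMO1 24 h comparisons with DMSO, except for CFZ replicate 1, nor for HFG and halofuginol at 6 h in L363-CFZr cells, nor between the lines. A term for the set in a fit rests only on groups whose libraries fall in different sets. These were AMO1 CFZ 24 h and L363-CFZr NCP22 6 h, whose differences the term carries over to all other groups. Calls kept or lost with it thus do not tell set and treatment apart. Pellets of 6 h were frozen overnight and those of 24 h were kept on ice before extraction, so storage and time cannot be told apart either. A pair of libraries stood apart from the others of their group, L363-CFZr DMSO 24 h replicate 2, with a median absolute difference of 0.42 on the log2 scale over 9199 genes, and AMO1 CFZ 24 h replicate 2, with 0.35. The number of members called in each comparison that uses one of them is given with and without it. The shares of all genes beside these numbers are those of the fits with every library. Over all comparisons in which libraries were left out in turn, 39 of 263 calls of a member were lost without at least 1 library, and these limits stand beside the values named.

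The search for heat shock elements covered the 250 bases before each RefSeq start (GRCh38.p14). A pair was GAANNTTC or TTCNNGAA, each of which reads the same on both strands, and a triple was 3 alternating repeats in a row, written GAANNTTCNNGAA or TTCNNGAANNTTC, so that a triple also counts as overlapping pairs. Of 35116 windows of this length 11.6% held a pair and 0.441% a triple. At least 1 window of 7 of the 10 genes held a pair (HSPA1A, HSPA1B, HSPA8, DNAJB1, HSPB1, HSP90AA1 and HSPD1), and those of HSPA8, HSP90AA1 and HSPD1 held a triple. These are counts of genes, of which DNAJB1, HSP90AA1 and HSPD1 have several windows, while the shares above are of windows. No pair was written in the windows of HSPH1, HSPE1 and BAG3, which says only that these letters are not there. The window of HSPE1 lies almost wholly within the gene as GENCODE draws it, since the RefSeq start is 239 bases downstream of the GENCODE start at 197500140 on chromosome 2. HSPD1 held 2 overlapping triples, and the stretch they cover (chr2:197500068-197500085) ends 55 bases before that GENCODE start. The windows of the 7 genes with a pair follow, so that the elements can be compared, and HSPA1A and HSPA1B can be read as near copies with unlike values. Capitals mark the pairs.
HSPA1A, chr6:31815293-31815542, plus strand: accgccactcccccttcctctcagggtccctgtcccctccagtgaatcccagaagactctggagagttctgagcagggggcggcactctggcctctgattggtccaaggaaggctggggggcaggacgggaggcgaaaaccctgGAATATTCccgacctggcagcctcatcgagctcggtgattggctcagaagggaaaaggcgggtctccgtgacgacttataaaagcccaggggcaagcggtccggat
HSPA1B, chr6:31827488-31827737, plus strand: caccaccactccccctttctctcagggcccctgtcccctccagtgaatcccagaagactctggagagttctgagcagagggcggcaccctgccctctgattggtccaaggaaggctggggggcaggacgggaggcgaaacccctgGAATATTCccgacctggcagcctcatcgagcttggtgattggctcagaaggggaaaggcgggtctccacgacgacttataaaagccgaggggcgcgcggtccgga
DNAJB1, chr19:14518398-14518647, minus strand: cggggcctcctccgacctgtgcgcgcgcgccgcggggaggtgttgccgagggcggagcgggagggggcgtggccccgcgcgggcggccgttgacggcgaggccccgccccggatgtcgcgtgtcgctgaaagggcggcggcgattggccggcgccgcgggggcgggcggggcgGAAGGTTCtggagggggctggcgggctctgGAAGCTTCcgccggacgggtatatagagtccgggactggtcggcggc
HSPB1, chr7:76302423-76302672, plus strand: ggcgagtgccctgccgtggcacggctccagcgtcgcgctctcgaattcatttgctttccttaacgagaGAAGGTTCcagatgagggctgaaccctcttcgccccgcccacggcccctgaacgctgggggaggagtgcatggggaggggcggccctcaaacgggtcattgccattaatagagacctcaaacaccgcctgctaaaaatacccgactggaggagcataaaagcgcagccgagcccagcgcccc
HSP90AA1, chr14:102087045-102087294, minus strand: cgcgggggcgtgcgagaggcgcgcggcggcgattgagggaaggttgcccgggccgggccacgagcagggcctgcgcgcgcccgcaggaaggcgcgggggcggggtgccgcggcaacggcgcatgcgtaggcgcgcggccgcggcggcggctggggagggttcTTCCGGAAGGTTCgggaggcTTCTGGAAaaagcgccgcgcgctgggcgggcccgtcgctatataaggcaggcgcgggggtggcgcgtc
The triples of HSPA8 (the farther of a pair of triples, at position -230) and HSPD1 are shown as 30 bases each.
HSPA8, within chr11:123062137-123062386, minus strand: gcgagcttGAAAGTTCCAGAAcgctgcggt
HSPD1, within chr2:197499841-197500090, minus strand: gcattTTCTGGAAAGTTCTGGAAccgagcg
The pair nearest to the start begins at position -106 in HSPA1A and -105 in HSPA1B, counted backwards from the start, and at -47 in DNAJB1, -182 in HSPB1, -68 in HSP90AA1, -50 in HSPA8 and -235 in HSPD1. DNAJB1, HSP90AA1 and HSPD1 have further RefSeq starts whose windows held none.

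CFZ at 6 h in AMO1 cells was the condition with the highest group mean of 9 of the 10 genes over all 22 groups, the exception being HSPA1A. Levels are given as CPM on library sizes scaled by the trimmed mean of M values (TMM), and differences as log2 fold changes from edgeR's quasi-likelihood test with p-values adjusted over all tested genes (Benjamini-Hochberg, threshold 0.05). Of the 10470 genes tested 14.1% were called higher and 12.8% lower, and 1.53% were higher by at least 2-fold. All 10 members were called higher, each with the 3 CFZ libraries above the 3 DMSO libraries, a separation in one direction or the other that 39.4% of all genes showed. Their median log2 fold change was 3.20, against -0.01 over all genes. They ranked from 2 (HSPA1B) to 45 (HSPE1) among all genes ordered by fold change. In bulk RNA a higher level in every cell and a larger share of responding cells cannot be told apart.

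HSPA1B, a stress-inducible HSP70 that folds proteins with ATP, had the largest change of the 10. The 3 DMSO libraries were at 98, 112 and 112 CPM, and the 3 CFZ libraries at 8480, 7947 and 8742 CPM. These ranges lie far apart, and the log2 fold change was 6.29 (SE 0.07, 95% interval 6.16 to 6.43, edgeR adjusted p = 3.49e-25). HSPA1A encodes the same HSP70 protein from a neighbouring gene, at chr6:31815543-31817946, which lies before HSPA1B on the same strand. It was at 34.2, 28 and 37.3 CPM with DMSO and at 119, 138 and 153 CPM with CFZ, a log2 fold change of 2.05 (SE 0.11, edgeR adjusted p = 4.55e-12). The 2 genes share most of their sequence, 76.0% of the 31-mers of HSPA1A being found in HSPA1B and 73.3% in the other direction, so the division of reads between them is uncertain. HSPA1B took 74.1% to 80.1% of their joint reads with DMSO and 98.3% to 98.6% with CFZ. Summed over both genes, which does not depend on this division, the level was 132.2 to 149.5 CPM with DMSO and 8085 to 8894 CPM with CFZ, and the log2 fold change was 5.93.

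HSPA8, the constitutive HSP70 of the cytosol, was the highest of the members with DMSO, at 1828, 1812 and 1678 CPM, and was at 9844, 9402 and 10230 CPM with CFZ. The log2 fold change was 2.48 (95% interval 2.38 to 2.58). HSPH1, an HSP110 that exchanges the nucleotide of HSP70, rose from 204, 203 and 214 CPM to 3141, 3178 and 3095 CPM, a log2 fold change of 3.93 (95% interval 3.81 to 4.05). DNAJB1, an HSP40 that delivers clients to HSP70 and starts its ATP cycle, was at 84.7, 90.8 and 84.8 CPM with DMSO and at 3495, 3338 and 3560 CPM with CFZ. Its log2 fold change was 5.33 (SE 0.06), the third highest of all genes tested. BAG3, which joins HSP70 to small heat shock proteins and to autophagy, rose from 39.2, 33.2 and 34.5 CPM to 1137, 1059 and 1070 CPM, a log2 fold change of 4.94 (95% interval 4.77 to 5.11). For these 4 genes the replicates within a group differed far less than the groups did.

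HSP90AA1 encodes the inducible HSP90 of the cytosol, which matures kinases and receptors and helps keep HSF1 inactive. It was at 966, 1012 and 1058 CPM with DMSO and at 17270, 16550 and 17370 CPM with CFZ, the highest level of any member in any group (log2 fold change 4.08, SE 0.05). HSPB1, a small heat shock protein (HSP27) that holds unfolded proteins without ATP, rose from 283, 254 and 219.5 CPM to 1360, 1347 and 1367 CPM (log2 fold change 2.44, SE 0.07). HSPD1 (HSP60) and its lid HSPE1 (HSP10) form the folding chamber of the mitochondrial matrix and lie head to head on chromosome 2. HSPD1 was at 1307, 1312 and 1326 CPM with DMSO and at 7207, 7008 and 7265 CPM with CFZ (log2 fold change 2.45). HSPE1 was at 249.8, 285 and 261 CPM with DMSO and at 1029, 955 and 1016 CPM with CFZ (log2 fold change 1.92), and 8.57% of its 31-mers also lie in the readthrough gene HSPE1-MOB4. For the 10 genes the edgeR adjusted p ran from 3.49e-25 to 4.55e-12.

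Per kilobase of transcript, the scale on which genes can be compared, the order of the levels changed. With DMSO for 6 h it was led by HSPA8 at 783 ± 36.5 (SD, n = 3) CPM per kilobase, followed by HSPD1 at 586 ± 4.28, HSPE1 at 476 ± 32.1, HSPB1 at 324 ± 40.8 and HSP90AA1 at 314 ± 14.3. HSPB1 and HSP90AA1 were not further apart than their SDs, and neither were HSPA1B (42.7 ± 3.26), HSPH1 (39.5 ± 1.17) and DNAJB1 (38.7 ± 1.56), or BAG3 (13.9 ± 1.24) and HSPA1A (13.8 ± 1.98). With CFZ for 6 h HSP90AA1 led at 5286 ± 137 CPM per kilobase, before HSPA8 at 4340 ± 184 and HSPA1B at 3333 ± 161, and HSPA1B and HSPD1 (3189 ± 59.9) did not differ beyond their SDs. The 10 genes together held 0.487 ± 0.005% of the counts with DMSO and 4.39 ± 0.05% with CFZ. They held 1.32 ± 0.15% with CFZ for 24 h and, as group means, 0.214% to 0.487% in the other 20 groups.

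**Figure D1:**
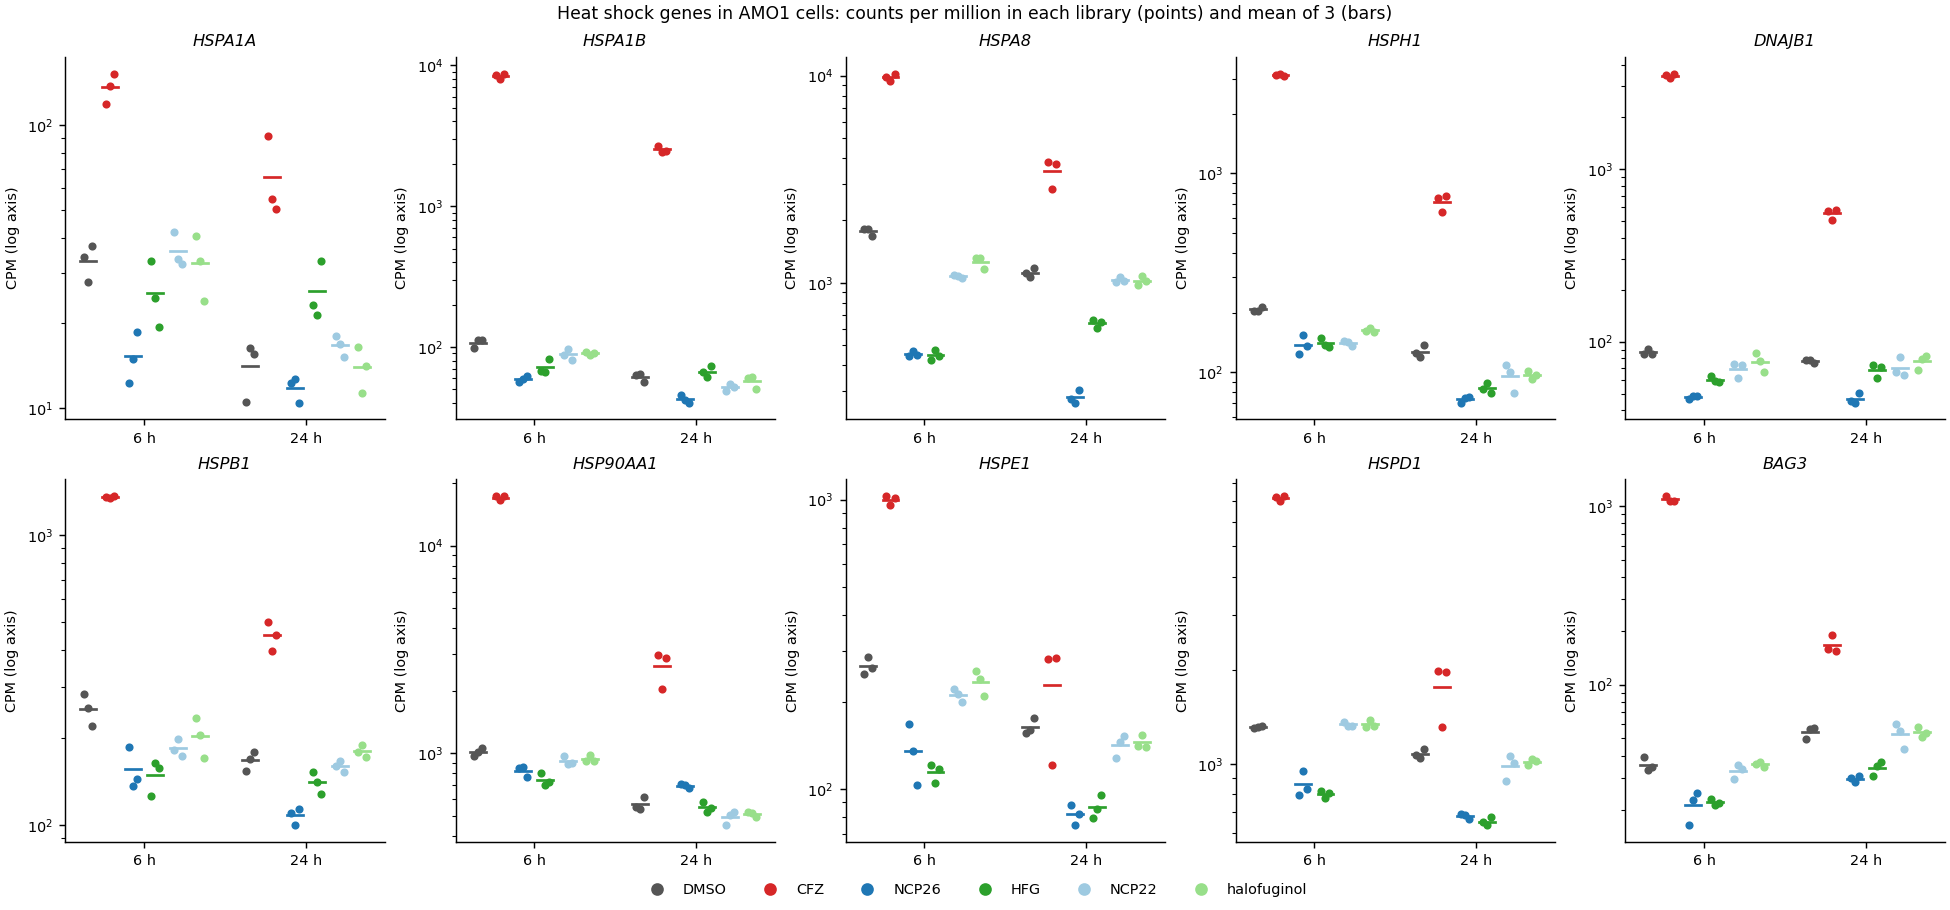
Levels of the 10 genes in the 36 AMO1 libraries, 1 panel per gene, with CPM on a log axis and the 12 groups along the other axis; points are libraries and bars are group means. The CFZ libraries of 6 h lie above all other AMO1 libraries in each panel, and those of 24 h lie between them and the rest in most panels.

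**Figure D2:**
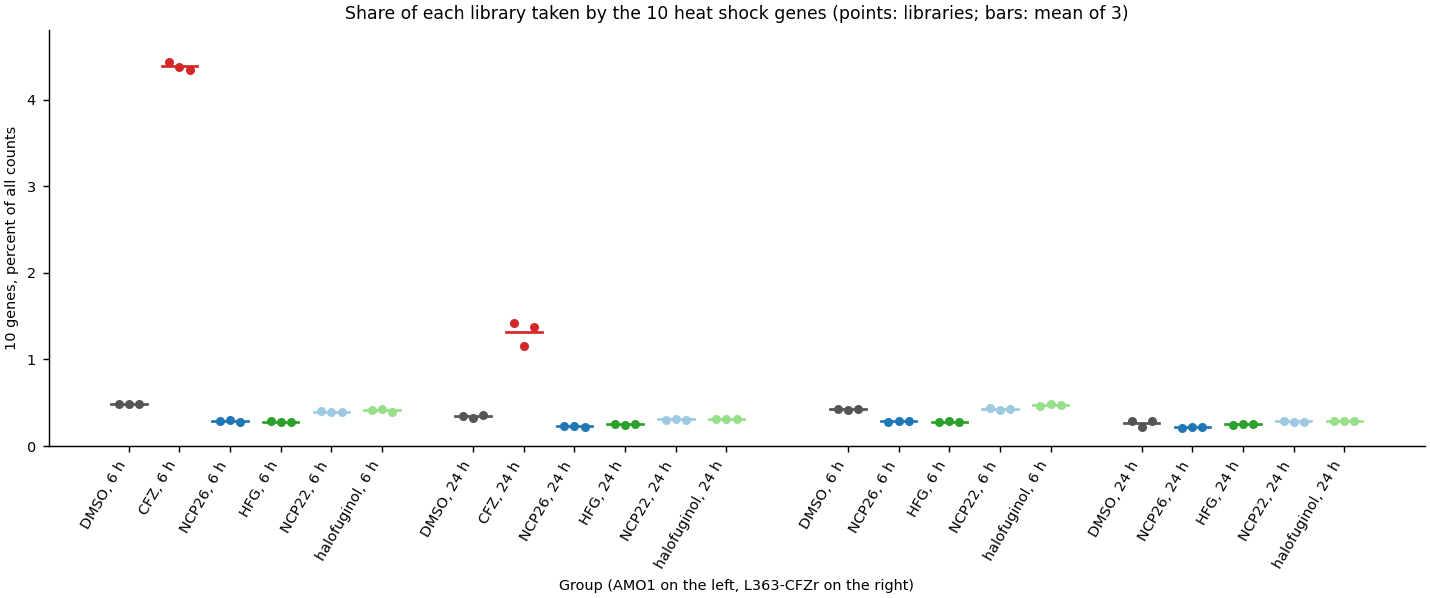
Share of all counts held by the 10 genes together, in percent, in each of the 66 libraries by group. The CFZ 6 h libraries lie between 4.34% and 4.44%, the CFZ 24 h libraries between 1.15% and 1.42%, and the libraries of all other groups at or below 0.491%.

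The other genes of the pathway were followed in 3 lists. Of 28 further heat shock genes and cochaperones, 25 were tested with CFZ at 6 h, and 22 (88%) were called higher and 0 lower. The median log2 fold change was 1.48. Of all genes 14.1% were called higher and 12.8% lower. HSPA6, an HSP70 that is nearly silent without stress, was at 3.32, 5.18 and 5.63 CPM (10, 15 and 16 counts) with DMSO and at 1776, 1828 and 1899 CPM with CFZ (log2 fold change 8.61). CRYAB, a small heat shock protein, had 1, 0 and 0 counts with DMSO and 11, 23 and 17 counts with CFZ, and no fold is given for it. It passed the filter on low counts only through the CFZ libraries, so its place among the tested genes is no support for a rise. Of 10 chaperones and proteases of mitochondria 4 (40%) were called higher and 1 (10%) lower, the latter near the share of all genes, with a median of 0.03. The mitochondrial HSP70, HSPA9, had a log2 fold change of 0.69 and the protease LONP1 of 0.46, both smaller than those of HSPD1 and HSPE1. Of 5 regulators 1 (20%) was called, higher, which is near the share of all genes. This was IER5, a cofactor that brings a phosphatase to HSF1, which went from 43.9 to 53.1 CPM with DMSO to 104 to 121 CPM with CFZ (log2 fold change 1.24). The HSF1 transcript was at 79.7, 76.0 and 74.9 CPM with DMSO and at 79.6, 74.5 and 81.5 CPM with CFZ, ranges that overlap (log2 fold change 0.04, edgeR adjusted p = 0.778). HSF2 gave a log2 fold change of 0.22 (adjusted p = 0.331).

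At 24 h CFZ left 9 of the 10 genes higher than DMSO, where 13.1% of 10674 tested genes were called higher, and the median log2 fold change of the members was 1.97, against 0.01 over all genes. HSPA1B was at 63.0, 64.3 and 56.2 CPM with DMSO and at 2687, 2433 and 2457 CPM with CFZ (log2 fold change 5.42, SE 0.15). HSPA1A was at 10.5, 16.3 and 15.6 CPM with DMSO and at 91.8, 54.9 and 50.7 CPM with CFZ (log2 fold change 2.25, SE 0.26), and summed over both genes the log2 fold change was 5.16. In 9 of the 10 genes the CFZ libraries lay above all DMSO libraries, and 46.9% of all genes had groups apart in one direction or the other. HSPA8 was at 1118, 1063 and 1178 CPM with DMSO and at 3834, 2847 and 3752 CPM with CFZ (log2 fold change 1.69). HSPH1 was at 125, 119.5 and 137 CPM with DMSO and at 749, 643 and 774 CPM with CFZ (log2 fold change 2.56). DNAJB1 was at 78.2, 78.7 and 75.2 CPM with DMSO and at 573, 507 and 577 CPM with CFZ (log2 fold change 2.89). In each of these the lowest CFZ library was replicate 2 or 3.

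BAG3 was at 49.6, 56.1 and 57.0 CPM with DMSO at 24 h and at 158, 190 and 154 CPM with CFZ (log2 fold change 1.68). HSPB1 was at 153, 169 and 178 CPM with DMSO and at 503, 398 and 453 CPM with CFZ (log2 fold change 1.49). HSP90AA1 was at 549, 539.9 and 613 CPM with DMSO and at 2957, 2042 and 2884 CPM with CFZ (log2 fold change 2.26). The mitochondrial pair showed the lowest values at this time. HSPD1 was at 1066, 1041 and 1118 CPM with DMSO and at 1996, 1319 and 1978 CPM with CFZ (log2 fold change 0.76, edgeR adjusted p = 0.00954), a call that was lost without DMSO replicate 1 or 2. HSPE1 was at 157, 160.2 and 177 CPM with DMSO and at 280.3, 122 and 284 CPM with CFZ, so that the groups overlapped, and its log2 fold change of 0.52 was not past the threshold (95% interval -0.09 to 1.13, adjusted p = 0.181). Without CFZ replicate 2, the library that stood apart, all 10 genes were called, HSPE1 had a log2 fold change of 0.80, HSPD1 0.92 and the others 1.54 to 5.43. With CFZ replicate 1 alone, the library in the set of the DMSO libraries, all 10 were called as well and HSPE1 had 0.79 (adjusted p = 2.83e-08). That fit assumes that the single CFZ library varies like the DMSO libraries. HSPE1 was also called with all AMO1 groups in one fit (adjusted p = 0.0108).

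At 24 h 16 of the 25 tested further heat shock genes and cochaperones (64%) were called higher with CFZ and 0 lower (median log2 fold change 0.81). Of all 10674 genes tested 1394 (13.1%) were called higher and 1492 lower. HSPA6 went from 1.62 to 2.17 CPM with DMSO to 243 to 393 CPM, and CRYAB had 0, 1 and 1 counts with DMSO and 39, 23 and 13 with CFZ. HSPA6 and CRYAB passed the filter on low counts here only through the CFZ libraries, so their place among the tested genes is no support for a rise. None of the 10 mitochondrial genes of the list was called higher by edgeR and 1 (10%) was called lower, near the share of all genes. This was CLPX, a chaperone of the matrix protease (log2 fold change -0.55, edgeR adjusted p = 0.0147). Of the 5 regulators 1 (20%) was higher and 1 (20%) lower, near the shares of all genes. IER5 was higher (log2 fold change 0.49) and HSF4, another heat shock factor, lower (-0.57), and HSF1 gave 0.34 (edgeR adjusted p = 0.148) and HSF2 -0.41 (adjusted p = 0.148).

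The change of the CFZ effect from 6 h to 24 h was tested as an interaction over 12 libraries. The effect was smaller at 24 h for 9 of the 10 genes, where 11.6% of all genes were called in that direction and 8.05% in the other. BAG3 had the largest difference, -3.28 on the log2 scale (SE 0.16, 95% interval -3.62 to -2.94, edgeR adjusted p = 3.52e-08), from a log2 fold change of 4.94 at 6 h to 1.68 at 24 h. DNAJB1 followed with -2.45 (SE 0.13), HSP90AA1 with -1.83, HSPD1 with -1.70, HSPE1 with -1.41 and HSPH1 with -1.38. HSPB1 had -0.97, HSPA1B -0.88 and HSPA8 -0.81. HSPA1A was the exception, with a difference of 0.19 (95% interval -0.46 to 0.83, adjusted p = 0.709). Summed over HSPA1A and HSPA1B the difference was -0.78. The effects at 24 h were led by HSPA1B, DNAJB1 and HSPH1, while BAG3, the third of the members at 6 h, lay below HSPH1. Without CFZ 24 h replicate 2 the differences called were for 9 genes too, with BAG3 at -3.41, HSPE1 at -1.12 and HSPA8 at -0.70. The DMSO libraries themselves differed between the times, which enters these differences, and BAG3 was the member that was higher with DMSO at 24 h.

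**Figure D3:**
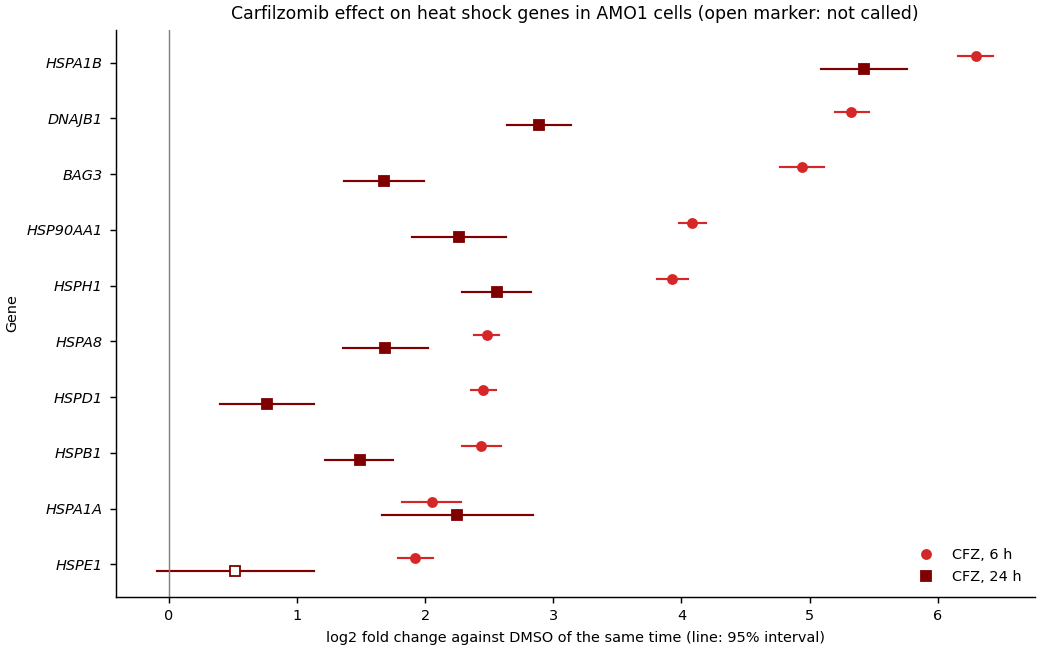
Log2 fold change of CFZ against DMSO in AMO1 cells at 6 h and at 24 h for each of the 10 genes, with 95% intervals. The values are lower at 24 h than at 6 h for all genes but HSPA1A. The differences are largest for BAG3, from 4.94 to 1.68, and DNAJB1, from 5.33 to 2.89.

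CFZ was also compared directly with the ProRS inhibitors, without the DMSO libraries. The members were chosen with earlier results of these data known, so these comparisons give sizes and do not test the choice. All 10 genes were higher with CFZ in each of 4 comparisons. At 6 h 21.8% of all genes were called higher than with NCP26 and 26.8% higher than with HFG, and at 24 h 22.5% and 9.92%. The median log2 fold change of the members was 4.40 against NCP26 and 4.49 against HFG at 6 h, and 2.55 and 2.31 at 24 h. At 6 h the smallest was HSPE1 against NCP26, 2.88 (95% interval 2.53 to 3.23), and HSPA1A against HFG, 2.51 (2.20 to 2.81). HSPA8 was at 445, 468 and 447 CPM with NCP26 and at 423, 475 and 443 CPM with HFG at 6 h, where the CFZ libraries were at 9402 to 10230 CPM, and the log2 fold changes were 4.44 and 4.47, where that of CFZ against DMSO was 2.48. At 24 h the smallest values were 1.43 (HSPD1 against NCP26, 95% interval 1.05 to 1.81) and 1.36 (HSPA1A against HFG, 0.76 to 1.97, edgeR adjusted p = 0.0117). Without CFZ replicate 2 all 10 were called against both, with HSPD1 at 1.59 against NCP26 and HSPA1A at 1.44 against HFG. Against HFG at 24 h 8 were called without HFG replicate 1 or 2 and 9 without replicate 3, the call of HSPE1 (1.42) being lost without any one of these and that of HSPA1A without replicate 1 or 2.

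NCP26 for 6 h lowered all 10 genes in AMO1 cells relative to DMSO, with 19.2% of 10666 genes called lower and 18.1% higher. The 3 NCP26 libraries lay below the 3 DMSO libraries for each of the 10, a separation in either direction that 48.3% of all genes showed, and the median log2 fold change was -0.79, against -0.01 over all genes. HSPA8 fell the most, from 1678 to 1828 CPM with DMSO to 445 to 468 CPM, a log2 fold change of -1.95 (95% interval -2.17 to -1.74, edgeR adjusted p = 5.06e-08). HSPA1A fell by 1.10 on the log2 scale, to 12.3, 14.9 and 18.5 CPM, and HSPA1B by 0.85, to 56.1, 58.9 and 62.4 CPM. HSPE1 fell by 0.95, DNAJB1 by 0.84, BAG3 by 0.73, HSPB1 by 0.68, HSPD1 by 0.60 and HSPH1 by 0.58. HSP90AA1 had the smallest change, from 966 to 1058 CPM to 765 to 859.6 CPM, a log2 fold change of -0.28 (adjusted p = 0.0425), and 9 genes were called without any one of 5 of the 6 libraries, since this call was lost.

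HFG for 6 h lowered 9 of the 10 genes, with 26.6% of 10737 genes called lower and 27.7% higher. HSPA8 again fell the most, to 423, 475 and 443 CPM (log2 fold change -1.98, 95% interval -2.11 to -1.86). HSPE1 fell from 249.8 to 285 CPM to 105 to 121 CPM (log2 fold change -1.21, SE 0.09). HSPB1 fell by 0.75 on the log2 scale, HSPD1 by 0.71, BAG3 by 0.70, HSPH1 and HSPA1B by 0.56, DNAJB1 by 0.53 and HSP90AA1 by 0.44. HSPA1A, at 33, 24.4 and 19.3 CPM with HFG, overlapped with DMSO (log2 fold change -0.44, edgeR adjusted p = 0.0516), and summed with HSPA1B the value was -0.52.

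At 24 h the members no longer moved in one direction. NCP26 lowered 8 of the 10 genes and raised 1, where 30.9% of 10787 genes were called lower and 29.8% higher. HSPA8 was at 276, 264 and 306 CPM, against 1063 to 1178 CPM with DMSO (log2 fold change -2.0, 95% interval -2.10 to -1.90), and HSPE1 fell by 1.02 on the log2 scale. HSP90AA1 was the gene that rose, to 708, 705 and 677 CPM from 539.9 to 613 CPM (log2 fold change 0.28, 95% interval 0.19 to 0.38, edgeR adjusted p = 3.02e-06), and HSPA1A did not pass the threshold (-0.31, adjusted p = 0.154). BAG3 fell by 0.89, HSPH1 by 0.80, DNAJB1 by 0.73, HSPD1 by 0.67, HSPB1 by 0.65 and HSPA1B by 0.53. When the set was added as a term to a fit of all 66 libraries, 5 of the 10 were called instead of 9. For AMO1 cells that term rests on the CFZ 24 h group, which holds the replicate 2 that stood apart. It cannot tell set and treatment apart.

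HFG at 24 h lowered 6 genes and raised 1, where 30.5% of 10723 genes were called lower and 28.5% higher. HSPA1A was the gene that rose, to 23.1, 21.4 and 33.2 CPM from 10.5 to 16.3 CPM (log2 fold change 0.87, SE 0.19, edgeR adjusted p = 0.00069). HSPA1B overlapped with DMSO (log2 fold change 0.14, adjusted p = 0.215), and their sum rose by 0.31 (adjusted p = 0.00708). HSPE1 fell by 0.91 on the log2 scale, HSPA8 by 0.81, HSPD1 by 0.72, BAG3 by 0.65, HSPH1 by 0.61 and HSPB1 by 0.26, whose call was lost without 1 library. With the set as a term the calls of HSPE1 (adjusted p = 0.382) and HSPB1 (adjusted p = 0.94) were lost. HSP90AA1 gave -0.05 (95% interval -0.16 to 0.06) and DNAJB1 -0.17 (-0.35 to 0.01), neither past the threshold.

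**Figure D4:**
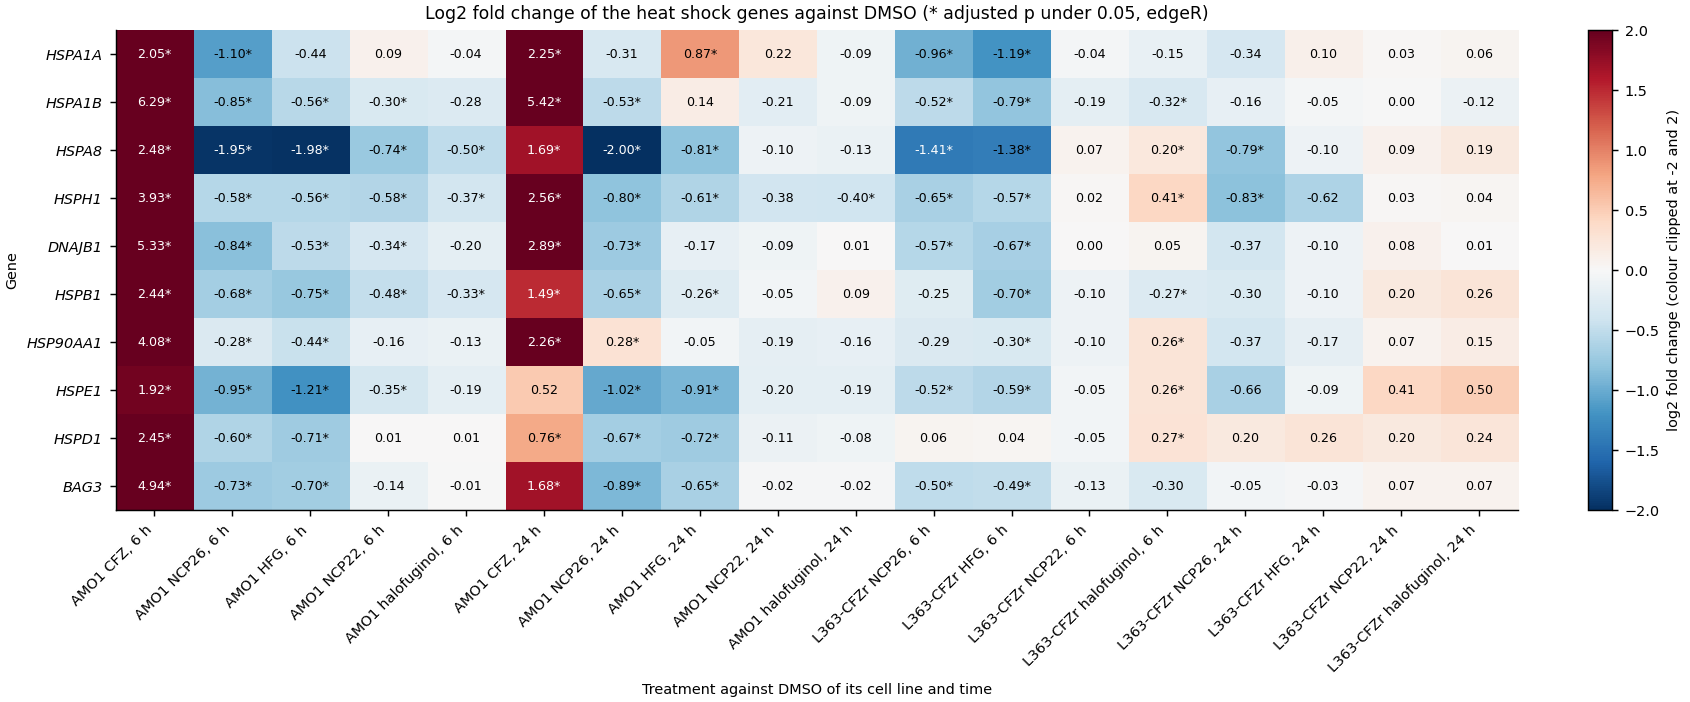
Log2 fold change against DMSO of the 10 genes (rows) in the 18 treatment groups (columns) as colour and number, with a mark on values past the adjusted p threshold of 0.05. The CFZ columns hold values from 0.52 to 6.29, and the other 16 columns run from -2.0 to 0.87.

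The further heat shock genes and cochaperones moved both ways with NCP26 and HFG in AMO1 cells. With NCP26 for 6 h 2 of 24 (8.33%) were higher and 9 (37.5%) lower, where 18.1% and 19.2% of all genes were (median log2 fold change -0.21), with AHSA1, which speeds the ATPase of HSP90, at -1.35 and the HSP40 DNAJA1 at -1.13. With HFG for 6 h 4 (16.7%) were higher and 13 (54.2%) lower, where 27.7% and 26.6% of all genes were (median -0.20), led by AHSA1 at -1.45 and the HSP90 cochaperone FKBP4 at -1.01. At 24 h the shares lay nearer to those of all genes. With NCP26 6 of 23 (26.1%) were higher and 9 (39.1%) lower, against 29.8% and 30.9% (median -0.13, BAG1 at -1.36 and DNAJA1 at -1.22). With HFG 8 of 24 (33.3%) were higher and 9 (37.5%) lower, against 28.5% and 30.5% (median 0.00, HSPA6 at 1.47 and HSPA4L at -1.05). HSPA6 stayed at 3.94 to 7.0 CPM with HFG for 24 h, against 243 to 393 CPM with CFZ. It had 10, 17 and 12 counts with HFG and 6, 9 and 8 with DMSO. Only the HFG libraries carried it past the filter on low counts, so its call with HFG is no support for a rise. Of the 10 mitochondrial genes 3 were higher and 3 lower with each compound at 6 h, which for HFG is near the shares of all genes (medians -0.08 with NCP26 and -0.11 with HFG). At 24 h 6 were higher and 3 lower with NCP26 (median 0.28) and 5 higher and 4 lower with HFG (median 0.24). HSPA9 was among the higher ones, with log2 fold changes of 1.06 and 0.91, while its fellow matrix chaperones HSPD1 and HSPE1 were lower with both compounds.

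The regulators were few, and against the same shares of all genes 1 of 5 was higher and 3 were lower with NCP26 and with HFG at 6 h. HSF1 fell by 0.32 on the log2 scale with NCP26 and by 0.39 with HFG, and HSF2 rose by 0.63 and 0.54. At 24 h 2 were higher and 1 lower with NCP26, in which HSF1 fell by 0.39, and 1 was higher and 2 were lower with HFG, in which HSF2 fell by 0.50. HSF1 with HFG at 24 h gave -0.09 (edgeR adjusted p = 0.333) and HSF2 with NCP26 -0.09 (adjusted p = 0.58).

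The effect of NCP26 in AMO1 cells was higher at 24 h than at 6 h for 2 of the 10 genes, HSPA1A (difference 0.79, 95% interval 0.23 to 1.34, edgeR adjusted p = 0.0455) and HSP90AA1 (0.56, 0.33 to 0.79, adjusted p = 0.00161), where 7.36% of all genes were called in that direction. The call of HSPA1A was lost without any one of 9 of the 12 libraries, at differences of 0.66 to 0.95. Summed with HSPA1B the difference was 0.415 (edgeR adjusted p = 0.031). HSPA8 had a difference of -0.05 (95% interval -0.27 to 0.16). The effect of HFG was higher at 24 h for 7 genes, where 18.5% of all genes were called in that direction. HSPA1A had 1.34 and HSPA8 1.21 (95% interval 1.05 to 1.37), HSPA8 going from a log2 fold change of -1.98 to -0.81. Summed over HSPA1A and HSPA1B the HFG difference was 0.87. HSPA1B had 0.73, HSPB1 0.53, HSP90AA1 0.42, DNAJB1 0.40 and HSPE1 0.33 (lost without any one of 6 of the 12 libraries), and HSPH1, HSPD1 and BAG3 gave -0.01, 0.03 and 0.09, not past the threshold. The NCP26 and HFG libraries of 24 h are in the second set and the other libraries used here in the first. Set and the change of an effect with time therefore cannot be told apart. With DMSO 8 of the 10 genes, HSPA1A and HSP90AA1 among them, were themselves lower at 24 h than at 6 h, where 23.4% of all genes were called lower. This enters each difference, so a positive difference need not be a rise in the treated cells. With the set as a term the HFG calls of DNAJB1 (edgeR adjusted p = 0.103) and HSPE1 (adjusted p = 0.193) were lost.

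NCP22 and halofuginol gave smaller values in AMO1 cells. With NCP22 for 6 h 6 of the 10 genes were lower and 0 higher, where 6.08% of 10693 genes were called lower and 7.42% higher (median log2 fold change -0.32), and the calls of HSPA1B and DNAJB1 were lost without any one of 4 and of 2 libraries. HSPA8 was at 1094, 1082 and 1051 CPM, below the DMSO range of 1678 to 1828 CPM, and HSPD1 at 1368, 1323 and 1328 CPM, which overlapped with the 1307 to 1326 CPM of DMSO. With halofuginol for 6 h 3 were lower, where 1.02% of 10593 genes were called lower and 2.60% higher. They were HSPA8, at 1322, 1322 and 1161 CPM (log2 fold change -0.50), HSPH1 (-0.37) and HSPB1 (-0.33, edgeR adjusted p = 0.0472, with overlapping groups, lost without any one of 4 libraries). At 24 h no member was called with NCP22 by edgeR or DESeq2, where 0% of 10781 genes were called, while 4 had an unadjusted p under 0.05. With halofuginol 1 was called, HSPH1 (-0.40), where 0.110% of 10943 genes were called lower, and DESeq2 called 0, as did edgeR without any one of 5 of the 6 libraries. Of the 24 further heat shock genes and cochaperones tested with NCP22 at 6 h 0 were higher and 10 lower, and with halofuginol 0 and 3, while at 24 h edgeR called 0 of 23 with either.

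Related compounds were compared at the same dose of 1 µM and the same time in 12 pairs, 6 in each line. With p-values adjusted over all genes of a pair 71 of the 120 member values were called, and adjusted over the 12 pairs together 75, with 8 calls that differed. Within a pair 0% (L363-CFZr NCP26 against HFG 6 h) to 56.6% (AMO1 HFG against halofuginol 24 h) of all genes were called in either direction. The 71 thus pool pairs with unlike shares, and the share of all genes over the 12 pairs is not given. In AMO1 cells NCP26 left 7 of the 10 genes lower than its analog NCP22 at 6 h, where 12.2% of all genes were called lower. HSPA8 had the largest difference, 445 to 468 CPM against 1051 to 1094 CPM (log2 difference -1.18, 95% interval -1.37 to -0.99), followed by HSPA1A (-1.16, -1.53 to -0.80). Summed over HSPA1A and HSPA1B the difference was -0.68. The calls of BAG3 and HSPE1 were each lost without any one of 2 libraries. HSPH1, lower than DMSO with both, gave 0.04 (-0.15 to 0.23), HSPB1 -0.18 (-0.45 to 0.10) and HSP90AA1 -0.09 (-0.30 to 0.11), none past the threshold. At 24 h 9 genes were lower with NCP26, where 25.7% of all genes were called lower, with HSPA8 at -1.88 (-2.02 to -1.74) and BAG3 at -0.85. HSP90AA1 was higher, by 0.49 (0.35 to 0.63), as were 26.3% of all genes. The calls of HSPA1A and HSPA1B at 24 h were lost without any one of 4 and of 3 libraries.

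HFG left 9 of the 10 genes lower than halofuginol at 6 h in AMO1 cells, where 26.1% of all genes were called lower. HSPA8 had -1.48 (95% interval -1.60 to -1.37), HSPE1 -1.02 (-1.17 to -0.86) and HSPD1 -0.73 (-0.82 to -0.64), and HSPA1A gave -0.40 (-0.80 to -0.01, edgeR adjusted p = 0.0831). At 24 h 6 were lower, where 28.7% of all genes were called lower, with HSPE1 at -0.72, HSPA8 at -0.67, HSPD1 and BAG3 at -0.63, HSPB1 at -0.35 and HSPH1 at -0.20, the latter not called when adjusted over the 12 pairs (adjusted p = 0.0801) or without any one of 4 libraries, as HSPH1 at 6 h was not without either of 2. HSPA1A was higher with HFG, by 0.96 (0.54 to 1.39), as were 27.9% of all genes. Summed with HSPA1B the value was 0.40.

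NCP26 and HFG, which bind different sites of ProRS, were compared in the same way. In AMO1 cells at 6 h no member was called between them by edgeR or DESeq2, where 0.260% of all genes were called, and 3 had an unadjusted p under 0.05. Adjusted over the 12 pairs HSPA1A (-0.66, 95% interval -1.16 to -0.16, adjusted p = 0.047) and DNAJB1 (-0.29, -0.50 to -0.07, adjusted p = 0.0443) were lower with NCP26. Within the pair their edgeR adjusted p were 0.262 and 0.258. The interval of HSPA8 was -0.14 to 0.25, around a difference of 0.05. At 24 h 6 genes were lower with NCP26 than with HFG, where 22.4% of all genes were called lower. They were HSPA8 (-1.21, -1.31 to -1.10), HSPA1A (-1.19), HSPA1B (-0.68), DNAJB1 (-0.58), HSPB1 (-0.40) and HSPH1 (-0.21, not called over the 12 pairs, adjusted p = 0.0631, or without any one of 5 libraries), and HSP90AA1 was higher by 0.32, as were 22.6% of all genes. HSPD1 gave 0.03 (-0.05 to 0.12) and HSPE1 -0.12 (-0.30 to 0.06). Summed over HSPA1A and HSPA1B the difference at 24 h was -0.805.

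In L363-CFZr cells, which had no CFZ group, NCP26 for 6 h lowered 7 of the 10 genes, where 8.99% of 10701 genes were called lower and 9.81% higher (median log2 fold change -0.52, against 0.01 over all genes). HSPA8 went from 1769, 1728 and 1870 CPM with DMSO to 675, 664 and 661 CPM (log2 fold change -1.41, 95% interval -1.62 to -1.19), and HSPA1A from 155, 139.5 and 148 CPM to 84.1, 62.9 and 77.8 CPM (-0.96). HSPH1 fell by 0.65 on the log2 scale, DNAJB1 by 0.57, HSPA1B and HSPE1 by 0.52 and BAG3 by 0.50. HSP90AA1 (-0.29, edgeR adjusted p = 0.0545) and HSPB1 (-0.25) did not pass the threshold. HSPD1 was at 764, 756 and 744 CPM with DMSO and at 731, 869 and 732 CPM with NCP26, overlapping (0.06, 95% interval -0.17 to 0.28). HSPB1 was at 421 CPM in NCP26 replicate 2 and at 285 and 273 CPM in the others. Without NCP26 replicate 2 9 members were called, HSPB1 (-0.47) and HSP90AA1 (-0.35) being added, and without DMSO replicate 3 4 were. The call of HSPE1 was lost without any one of 5 of the 6 libraries, that of BAG3 without any one of 3 and that of HSPA1B without 1.

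HFG for 6 h lowered 9 of the 10 genes in L363-CFZr cells, where 27.5% of 10478 genes were called lower and 26.9% higher. HSPA8 was at 650.1, 678 and 684 CPM (log2 fold change -1.38, 95% interval -1.48 to -1.28), HSPA1A at 63.9, 62.3 and 62.4 CPM (-1.19) and HSPA1B at 136, 144 and 140 CPM (-0.79). HSPB1 fell by 0.70 on the log2 scale, DNAJB1 by 0.67, HSPE1 by 0.59, HSPH1 by 0.57, BAG3 by 0.49 and HSP90AA1 by 0.30. HSPD1 was at 759.8, 743 and 756 CPM, within the range of DMSO but for 1 library (0.04, 95% interval -0.07 to 0.14), and at -0.23 with an offset for GC content. With the set as a term the calls of HSPE1 (adjusted p = 0.352) and HSP90AA1 (adjusted p = 0.456) were lost.

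Halofuginol for 6 h moved the members of L363-CFZr cells in both directions, 5 higher and 2 lower, where 13.6% of 10519 genes were called higher and 12.2% lower. HSPH1 rose from 150.2, 133 and 139 CPM to 182, 201 and 192 CPM (log2 fold change 0.41), and HSPD1, HSP90AA1, HSPE1 and HSPA8 rose by 0.27, 0.26, 0.26 and 0.21 on the log2 scale. HSPA1B fell by 0.32 and HSPB1 by 0.27. These 7 calls became 0 with the offset for GC content or with the set as a term, and 2 with all groups of the line in one fit. NCP22 for 6 h gave no call of a member by edgeR or DESeq2, where 0% of 10235 genes were called, and 0 members had an unadjusted p under 0.05. The 95% intervals of the members' log2 fold changes lay between -0.38 and 0.21.

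At 24 h NCP26 lowered 2 of the 10 genes in L363-CFZr cells, where 4.38% of 10676 genes were called lower. The 2 were HSPA8, at 936, 689 and 1002 CPM with DMSO and at 487, 511 and 533 CPM with NCP26 (log2 fold change -0.79, edgeR adjusted p = 0.0296), and HSPH1 (-0.83, adjusted p = 0.0114). The DMSO group holds the library that stood apart, in which HSPE1 was at 48.5 CPM against 175 and 177 CPM in the others and HSPD1 at 467 CPM against 795 and 765 CPM. Without that library 7 members were called, and without any one of the 3 NCP26 libraries or DMSO replicate 3, 0. HFG for 24 h gave 0 calls of a member with edgeR and DESeq2, where 1.17% of 10469 genes were called, 1 member had an unadjusted p under 0.05, and without the same DMSO library 6 members were called. NCP22 and halofuginol gave 0 calls of a member with both tools, also without that library, and 0 members with an unadjusted p under 0.05, where 0% of all genes were called. The shares of all genes at 24 h are those with that library, and the shares without it are not given. The counts of members without it thus have no share to be set against.

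**Figure D5:**
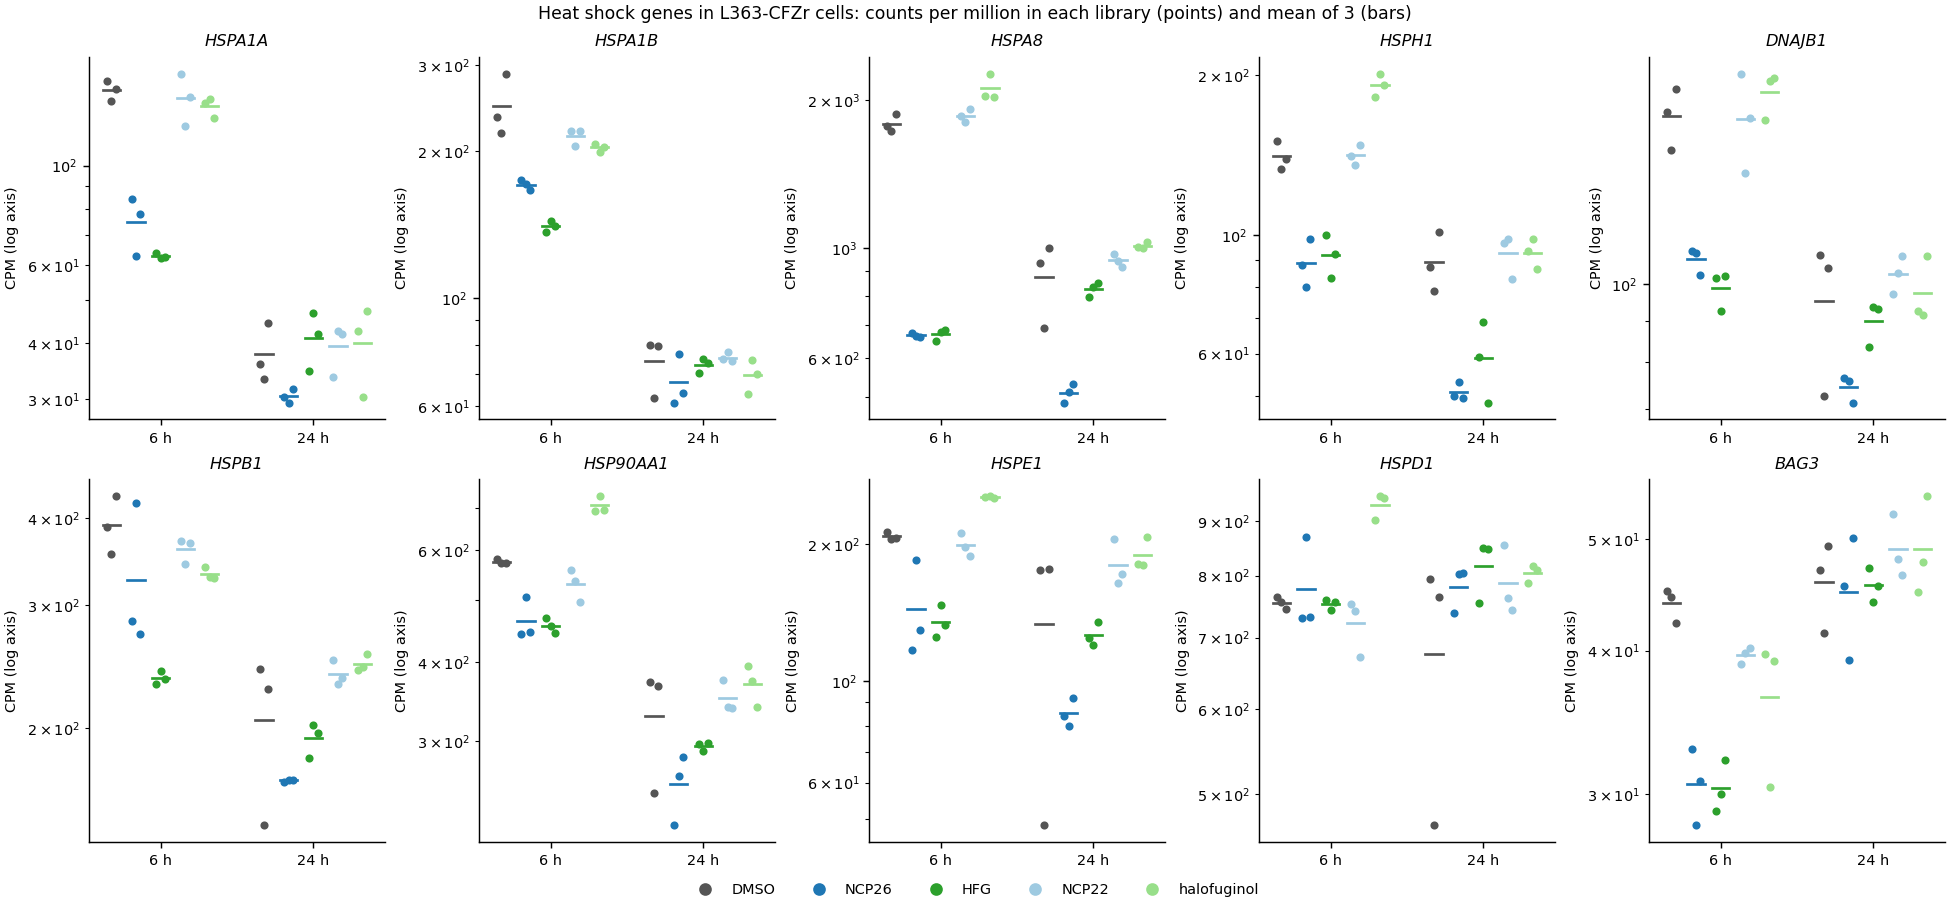
Levels of the 10 genes in the 30 L363-CFZr libraries, 1 panel per gene, with CPM on a log axis and the 10 groups along the other axis; points are libraries and bars are group means. HSPA8 lies at 650.1 to 684 CPM with NCP26 and HFG at 6 h, below the 1728 to 1870 CPM of DMSO, and replicate 2 of DMSO at 24 h lies low in HSPE1 and HSPD1.

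Between related compounds in L363-CFZr cells NCP26 was lower than NCP22 for 6 members at 6 h, where 10.4% of all genes were called lower, and for 7 at 24 h, where 17.9% were. HSPA8 had -1.49 (95% interval -1.70 to -1.28) at 6 h and -0.89 (-1.05 to -0.73) at 24 h, and HSPE1 -1.08 (-1.3 to -0.86) at 24 h. HSPD1 gave 0.10 (-0.14 to 0.33) and -0.01 (-0.18 to 0.17). The calls of HSPA1B and HSPE1 at 6 h were each lost without any one of 5 of the 6 libraries, and that of HSPA1A at 24 h without any one of 4. HFG was lower than halofuginol for 9 members at 6 h, where 24.2% of all genes were called lower, led by HSPA8 (-1.58, -1.66 to -1.51) and HSPA1A (-1.04), and for 5 at 24 h, where 12.3% were, with HSPH1 at -0.67 and HSPE1 at -0.58. Summed over HSPA1A and HSPA1B the value at 6 h was -0.67. These comparisons do not use the DMSO libraries. NCP26 and HFG gave 0 calls of a member at 6 h with both tools, where 0% of all genes were called, and 2 members had an unadjusted p under 0.05. When adjusted over the 12 pairs these were called, HSPA1B (0.27, adjusted p = 0.0328) and HSPB1 (0.45, adjusted p = 0.0487), both higher with NCP26. Within the pair the edgeR adjusted p of each was 0.42, so these calls come from the adjustment together with pairs that hold many called genes. HSPB1 stood high in NCP26 replicate 2 alone, as given above. The NCP26 libraries of 6 h are in the second set and those of HFG in the third, so compound and set cannot be told apart. At 24 h 4 members were lower with NCP26, HSPA8 (-0.70, -0.81 to -0.59), HSPE1 (-0.57), HSPA1A (-0.44) and DNAJB1 (-0.27), where 7.43% of all genes were called lower, and the calls of HSPA1A and DNAJB1 were each lost without any one of 4 libraries. Summed over HSPA1A and HSPA1B the difference was -0.22 (edgeR adjusted p = 0.101). Adjusted over the 12 pairs HSPB1 at 24 h (-0.20, adjusted p = 0.0327) and BAG3 between NCP26 and NCP22 at 6 h (-0.38, adjusted p = 0.0437) were called as well.

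The further heat shock genes and cochaperones of L363-CFZr cells were lower in 6 (25%) and higher in 0 of 24 with NCP26 for 6 h, where 8.99% and 9.81% of all genes were, with DNAJA1 at -1.06 and FKBP4 at -0.94 on the log2 scale. With HFG 11 (45.8%) were lower and 6 (25%) higher, where 27.5% and 26.9% of all genes were, so that the share higher was near that of all genes. With halofuginol for 6 h 5 of 25 (20%) were higher and 3 (12%) lower, against 13.6% and 12.2% of all genes, CHORDC1, an HSP90 cochaperone, having the largest change (0.51). At 24 h 1 of 24 (4.17%) was called with NCP26, FKBP4 (-0.87), where 4.38% of all genes were called lower, and edgeR called 0 with HFG. Of the mitochondrial genes 3 were higher and 0 lower with NCP26 for 6 h, with GRPEL2, a nucleotide exchange factor of HSPA9, at 0.97 and HSPA9 at 0.63, and 5 were higher and 3 lower with HFG, with 1.18 and 0.68 for the same genes. At 24 h 3 of the 10 were higher with NCP26, where 2.71% of all genes were, led by HSPA9 (1.00) and LONP1 (0.88), and 1 with HFG, where 0.592% were, LONP1 (0.69). HSF1 fell by 0.27 with HFG and by 0.26 with halofuginol at 6 h and gave -0.11 with NCP26 (edgeR adjusted p = 0.495).

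The DMSO controls differed between the times. In AMO1 cells 8 of the 10 genes were lower at 24 h than at 6 h and 1 was higher, where 23.4% of all genes were called lower and 23.1% higher. HSPA1A fell by 1.19 on the log2 scale, HSP90AA1 by 0.84, HSPA1B by 0.82, HSPH1 by 0.70, HSPE1 by 0.69, HSPA8 by 0.66, HSPB1 by 0.59 and HSPD1 by 0.29. BAG3 rose by 0.62 (95% interval 0.39 to 0.84), and DNAJB1 gave -0.17 (edgeR adjusted p = 0.114). In L363-CFZr cells 7 were lower at 24 h, where 5.81% of all genes were called lower, with HSPA1A at -1.92 (-2.25 to -1.59), HSPA1B at -1.69 and HSPA8 at -0.99. HSPE1, HSPD1 and BAG3 were not called there, and 2 members were called without any one of the 6 h libraries and 4 without 24 h replicate 3. Without 24 h replicate 2, the library that stood apart, 8 were called, with HSPA1A at -1.86, HSPA8 at -0.87 and HSPE1 at -0.23, where it had -0.61 with that library (adjusted p = 0.281). The pellets of the 2 times were stored differently, the L363-CFZr DMSO libraries of the 2 times belong to different sets of sample numbers, and the part of either in these differences was not tested.

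Against this background the effect of HFG in L363-CFZr cells was higher at 24 h than at 6 h for 5 members, where 4.75% of all genes were called in that direction. Without any one of 8 of the 12 libraries 3 were called, with the offset for GC content 2, and without DMSO 24 h replicate 2 there were 6, HSPB1 being added (0.46). The 5 were HSPA1A (1.31, 95% interval 0.94 to 1.68), HSPA8 (1.3, 0.95 to 1.65), HSPA1B (0.76), DNAJB1 (0.59) and BAG3 (0.48). Summed over HSPA1A and HSPA1B the difference was 0.95. Of the groups in this fit only DMSO at 6 h is in another set, so set and time difference cannot be told apart. The call of BAG3 was lost with the set as a term (edgeR adjusted p = 0.115). For NCP26 0 members were called by edgeR and 1 by DESeq2, where 0.691% of all genes were called, and 3 had an unadjusted p under 0.05. HSPA8 gave 0.62 (0.24 to 1.00, edgeR adjusted p = 0.146) and without DMSO 24 h replicate 2 0.50 (adjusted p = 0.033), the 1 call in that fit.

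Between the lines, which also differ in set, L363-CFZr cells with DMSO at 6 h had 4 members higher and 4 lower than AMO1 cells, where 28.9% of all genes were called higher and 31.3% lower. HSPA1A was at 155, 139.5 and 148 CPM against 28 to 37.3 CPM (log2 fold change 2.12), and HSPA1B at 235, 218 and 288 CPM against 98 to 112 CPM (1.17), a sum that was higher by 1.45. DNAJB1 (0.86) and HSPB1 (0.60) were higher as well, and HSP90AA1 (-0.85), HSPD1 (-0.84), HSPH1 (-0.59) and HSPE1 (-0.39) were lower. With the set as a term HSPE1 lost its call and turned in direction (0.083, adjusted p = 0.887). HSPA8, at 1728 to 1870 CPM against 1678 to 1828 CPM, overlapped (-0.02, 95% interval -0.14 to 0.09). At 24 h 1 was higher (HSPA1A, 1.43) and 3 were lower (HSP90AA1, -0.76, HSPD1, -0.65, and HSPH1, -0.48), where 19.4% of all genes were called higher and 20.5% lower. Without L363-CFZr DMSO replicate 2 8 were called and without AMO1 DMSO replicate 1 or 3 2 were. The shares of all genes in those fits are not given. With the set as a term 1 was called, HSPA1A. Summed over HSPA1A and HSPA1B the difference between the lines at 24 h was 0.6.

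The difference of a compound's effect between the lines was tested as an interaction. For NCP26 at 6 h HSPA8 (0.53, 95% interval 0.27 to 0.79, edgeR adjusted p = 0.0287) and HSPD1 (0.64, 0.36 to 0.93) were higher, that is less lowered, in L363-CFZr cells, where 1.96% of all genes were called in that direction, and at 24 h HSPA8 (1.18), HSPD1 (0.84) and BAG3 (0.80), where 2.97% were. The call of HSPA8 at 6 h was lost without any one of 7 of the 12 libraries, and that of HSPD1 at 24 h without any one of 9 and with the set as a term (adjusted p = 0.0798). Without L363-CFZr DMSO 24 h replicate 2 4 members were called at 24 h, HSPA8 (1.05), BAG3 (0.76), HSPD1 (0.65) and HSP90AA1 (-0.83). For HFG at 6 h HSPA8 (0.61), HSPE1 (0.62) and HSPD1 (0.76) were higher and HSPA1A (-0.74) lower, where 11.3% of all genes were called higher and 9.34% lower, and the calls of HSPE1 and HSPA1A were lost with the set as a term. Summed over HSPA1A and HSPA1B the HFG value at 6 h was -0.395. At 24 h HSPD1 (0.97), HSPA8 (0.70) and BAG3 (0.61) were higher, where 8.06% of all genes were, and 6 members were called without L363-CFZr DMSO 24 h replicate 2, with HSPD1 at 0.79, HSPA8 at 0.59 and BAG3 at 0.58. The comparisons of a time share their DMSO libraries. HSPH1 gave -0.09 to 0.00 over the 4 and was called in none by edgeR, with log2 fold changes against DMSO of -0.56 to -0.83 in the 8 groups of NCP26 and HFG, 7 of which were called lower.

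Over the 12 AMO1 group means of log2 CPM the 45 pairs of members correlated at 0.784 (HSPA1A with BAG3) to 0.984 (HSPH1 with HSPB1), with a median of 0.916. The points share libraries, and 2 of the 12, the CFZ groups, lie far from the rest, so these values are a description. Outside all lists the 5 genes with the highest correlation with the mean of the members' standardized profiles were SRXN1 (0.964), which reduces oxidized peroxiredoxins, the adaptor DOK1 (0.960), EIF1AD (0.952), APOL2 (0.951) and PSMD12 (0.946), a subunit of the proteasome lid. Each had its highest AMO1 group mean with CFZ for 6 h. SRXN1 was at 59.8, 57.0 and 61.9 CPM with DMSO and at 282, 271 and 295 CPM with CFZ for 6 h, and PSMD12 at 100.3, 118 and 114 CPM and at 238, 212 and 239 CPM.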

How the data were processed

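RNAseq libraries of AMO1 and L363-CFZr cells were analysed in 22 groups of 3 replicates. The authors sequenced polyadenylated RNA as directional libraries and quantified reads with kallisto, and deposited raw whole-number counts of 20167 genes, with no scaling between libraries. The submitters' processing notes name hg19 and the methods GRCh38. The sources used here do not state the kallisto version, the annotation or how counts became whole. These counts entered edgeR 4.0.16 under R 4.3.3 (filterByExpr with minimum count 10 and minimum total 15, TMM, quasi-likelihood F test, Benjamini-Hochberg adjustment over all tested genes, threshold 0.05). Only the libraries compared entered a fit, and differences between times or lines were interactions over 12 libraries. CPM used TMM sizes over all 66 libraries. Genes were matched to GENCODE v44 (19299 genes, 95.7%). The 10 members and the other lists were chosen with earlier results of these data known. All members were named, from the other lists HSF1, HSF2 and up to 2 called genes with the largest change, and 5 genes by correlation with the members (log2 CPM with prior count 2). The 3 other lists were regulators, further heat shock genes and cochaperones, and mitochondrial chaperones and proteases. Alternatives were DESeq2 1.42.0 (size factors, Wald test), no filter, a replicate block, a lowess offset for GC content (span 0.3, GC known for 98.3% to 98.6% of tested genes), HSPA1A and HSPA1B summed, all groups of a line in one fit, the set of sample numbers as a term, and each library left out. Replicates differed by 1.29 to 36.3 times sampling noise in 66 pairs, and 0 were identical. In simulated data for CFZ at 6 h 186 of 200 genes changed by 2-fold were called among 10375, with 6.06% false calls, and for its difference between times 118 of 200 among 10831, with 1.67%. The simulation gave every gene and library the same dispersion and held no library that stood apart, so these rates need not hold for the data. Its changed genes were drawn only from those with higher mean counts, so the recovery does not cover genes with low counts. Python 3.11.15 and matplotlib 3.10.9 were used for sequences and figures.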

Additional observations from a re-analysis of the deposited data

Results flagged for a closer look

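The effects below differed between times or cell lines by the test of an interaction in edgeR, with values as differences of log2 fold changes. For CFZ in AMO1 cells 9 genes had a smaller effect at 24 h than at 6 h: BAG3 (-3.28), DNAJB1 (-2.45), HSP90AA1 (-1.83), HSPD1 (-1.70), HSPE1 (-1.41), HSPH1 (-1.38), HSPB1 (-0.97), HSPA1B (-0.88) and HSPA8 (-0.81). Their rise over DMSO was past the threshold at both times for all but HSPE1.

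For the ProRS inhibitors the called differences between times were positive. With NCP26 in AMO1 cells they were 0.79 for HSPA1A, whose call was lost without any one of 9 libraries, and 0.56 for HSP90AA1. HSP90AA1 had a log2 fold change of -0.28 at 6 h, a call lost without any one of 5 of the 6 libraries, and of 0.28 at 24 h, each against DMSO of that time. With HFG in AMO1 cells they were 1.34 for HSPA1A, 1.21 for HSPA8, 0.73 for HSPA1B, 0.53 for HSPB1, 0.42 for HSP90AA1, 0.40 for DNAJB1 and 0.33 for HSPE1, lost without any one of 6 libraries. With HFG in L363-CFZr cells they were 1.31 for HSPA1A, 1.3 for HSPA8, 0.76 for HSPA1B, 0.59 for DNAJB1 and 0.48 for BAG3, of which those of DNAJB1 and BAG3 were lost without any one of 8 and of 9 libraries. In AMO1 cells only the treated 24 h libraries, and in L363-CFZr cells only the DMSO 6 h libraries, are in another set. The part of the sets in these values therefore cannot be told apart from that of time. With DMSO 8 members in AMO1 cells and 7 in L363-CFZr cells were lower at 24 h than at 6 h, where 23.4% and 5.81% of all genes were called lower. This enters the differences, so a positive value need not be a rise in the treated cells. With the set as a term the HFG calls of DNAJB1 and HSPE1 in AMO1 cells and of BAG3 in L363-CFZr cells were lost. Summed over HSPA1A and HSPA1B the HFG differences between times were 0.87 in AMO1 cells and 0.95 in L363-CFZr cells, and that of NCP26 in AMO1 cells 0.415.

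Between the lines, as L363-CFZr minus AMO1, the effect of NCP26 differed at 6 h by 0.53 for HSPA8 and 0.64 for HSPD1, and at 24 h by 1.18 for HSPA8, 0.84 for HSPD1 and 0.80 for BAG3. The call of HSPA8 at 6 h was lost without any one of 7 of the 12 libraries and that of HSPD1 at 24 h without any one of 9. The effect of HFG differed at 6 h by -0.74 for HSPA1A, 0.61 for HSPA8, 0.62 for HSPE1 and 0.76 for HSPD1, and at 24 h by 0.70 for HSPA8, 0.97 for HSPD1 and 0.61 for BAG3. Summed over HSPA1A and HSPA1B the HFG value at 6 h was -0.395. At each time the lines belong to different sets of sample numbers, and the part of the sets in these values cannot be told apart from that of the line.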

How the results depend on the processing

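All 10 genes were called higher with CFZ at 6 h under every alternative that was run, and 8 to 10 at 24 h when each library was left out (8 without DMSO replicate 1 or 2, 10 without CFZ replicate 2). Over the members' log2 fold changes in all comparisons the direction and the side of the threshold were kept in 468 of 470 with DESeq2 size factors, 445 of 461 with its Wald test, 459 of 470 without the filter, 439 of 470 with the GC offset, 417 of 423 with HSPA1A and HSPA1B summed, 357 of 390 with all groups of a line in one fit and 3152 of 3360 when a library was left out. With a term for the set, which was added after seeing the data for the fit of all 66 libraries, they were kept in 420 of 470, and in 188 of 200 within AMO1. That term rests only on the groups whose libraries fall in different sets and does not tell set and treatment apart. A pairing of samples by replicate number was not seen by the rule used, as no comparison had all 3 same-numbered correlations above 0.1. The highest were 0.334 and 0.258 for L363-CFZr NCP22 24 h, where the third was -0.201. This rule cannot show that the samples were unpaired. With the replicate block 452 of 470 were kept. Counts of members called moved as follows, and the cause was not tested. With the replicate block AMO1 NCP22 24 h went from 0 to 1, AMO1 halofuginol 24 h from 1 to 0, L363-CFZr NCP26 24 h from 2 to 0 and the line difference of NCP26 at 6 h from 2 to 1. With the DESeq2 Wald test AMO1 halofuginol 24 h went to 0, the time difference of NCP26 in AMO1 from 2 to 1 and in L363-CFZr from 0 to 1, and L363-CFZr NCP26 against HFG 24 h from 4 to 2. Without the filter AMO1 NCP22 24 h and AMO1 NCP26 against HFG 6 h went from 0 to 1, and the time difference of HFG in L363-CFZr from 5 to 3. With the GC offset the latter went to 2, that of NCP26 in AMO1 to 1 and L363-CFZr halofuginol 6 h from 7 to 0, and HSPD1 with HFG at 6 h in L363-CFZr went from 0.04 to -0.23 (adjusted p = 0.000418). With HSPA1A and HSPA1B summed the time difference of NCP26 in AMO1 had 2 calls, not the same genes. With all groups of a line in one fit AMO1 halofuginol 24 h went to 0, the time difference of NCP26 to 1 in AMO1 and 2 in L363-CFZr, and in L363-CFZr halofuginol 6 h to 2, NCP26 24 h to 5, HFG 24 h to 1, HFG against halofuginol 24 h from 5 to 3 and NCP26 against HFG 24 h to 1. With the set term over all libraries AMO1 NCP26 24 h went from 9 to 5, AMO1 halofuginol 24 h to 0 (also within AMO1), the line difference of HFG at 6 h from 4 to 2, the DMSO line difference at 24 h from 4 to 1, and in L363-CFZr halofuginol 6 h to 0, NCP26 24 h to 5, HFG 24 h to 1, the time difference of NCP26 to 1, HFG against halofuginol 24 h to 3 and NCP26 against HFG 24 h to 1, and HSPE1 between the DMSO lines at 6 h went from -0.389 to 0.083. When each library was left out the counts ran from 0 to 1 for AMO1 NCP22 24 h and AMO1 halofuginol 24 h, and in L363-CFZr from 4 to 9 for NCP26 6 h, 0 to 7 for NCP26 24 h, 0 to 6 for HFG 24 h, 0 to 2 for NCP26 against HFG 6 h and 2 to 5 at 24 h, and 2 to 8 for DMSO 24 h against 6 h. Time differences ran from 1 to 2 (NCP26, AMO1), 0 to 1 (NCP26, L363-CFZr) and 3 to 6 (HFG, L363-CFZr), and line differences from 1 to 2 (NCP26 6 h), 3 to 6 (HFG 24 h) and 2 to 8 (DMSO 24 h). The highest counts of 7, 6, 6 and 8 at 24 h were those without L363-CFZr DMSO replicate 2, for which the shares of all genes are not given. Scaling moved the median of all genes by at most 0.015. The smallest member count of 29 limits the precision of HSPA1A.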
